A study of Mus musculus with 13 samples.

Results

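Candidate regions of C/EBPα binding around 8 genes of the ETS family of transcription factors were examined in LSK cells. These are the lineage-negative, Sca-1 positive and Kit positive cells of mouse bone marrow. By the study they are a mixture of hematopoietic stem cells and, for the most part, multipotent progenitors. The genes were Sfpi1, which encodes PU.1, and Spib, Fli1, Erg, Ets1, Ets2, Etv6 and Elf1. A region was counted at a gene when its centre lay within 100 kb of the transcription start site (TSS) of the gene's annotated transcript with the longest span, or inside the gene body. This gave 18 of the 17899 candidate regions that the authors deposited for 1 C/EBPα ChIP-seq library. In ChIP-seq an antibody, here against C/EBPα (Santa Cruz 14-AA), pulls down crosslinked DNA fragments that are then sequenced. The library was labelled C57BL/6 cebpa flox/flox;Mx1Cre, a strain in which the interferon-responsive Mx1 promoter drives a Cre recombinase able to delete the floxed Cebpa gene. The labels name neither a genotype nor an induction of Cre for these cells, nor the age or number of mice. By the study's methods, floxed adults with and without Mx1Cre were all given pIpC, an interferon inducer, and those with Mx1Cre served as the Cebpa-deleted group. Taken literally, the strain label would thus mean cells without Cebpa, in which regions called with this antibody could not be read as C/EBPα binding. This same strain label is also on histone mark samples of both genotypes, knock out and wild type, however, so it does not tell the groups apart. The study reads its filtered LSK regions as bound by C/EBPα, and it reports qPCR at selected ones and C/EBP motifs overrepresented in them. Those filtered regions are a small part of its candidates, and which of the 18 are among them was not checked here. In the list used here, a C/EBP sequence word lay near the centre of 46.5% of the regions with scores of at least 200, against 9.22% under 100, as described below. Windows of the same length placed 1000 bp away held it in 12% over the whole list. Scores under 100 were those of 15 of the 18 regions, and 2 had at least 200. The state of Cebpa in these cells was not tested and is not settled here. The IgG mock, against which the regions were called, carried the same strain label, and it and the other samples among the 13 of the study were not analysed here. Among these is a second C/EBPα library from LSK cells, labelled as a replicate but with a strain label that lacks Mx1Cre, so the lack of a replicate check below is a limit of the 1 list analysed and not of the study. A list of regions carries no expression, so the LSK label could not be set against marker genes. The list gives no read numbers or summits, and the mapped reads that the study shows for each library were not used here. With the regions of 1 library, no value has a replicate check or a test.

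ETS factors share a DNA-binding domain that recognises sites with a GGAA core, and several of them are needed to make or keep blood stem cells. PU.1 drives myeloid and B lymphoid development, and its own gene is controlled by an upstream regulatory element that binds PU.1 itself together with other blood factors. C/EBPα is a basic leucine zipper factor that acts with PU.1 on many myeloid genes and binds short, nearly palindromic sites that start with TTGC or a close variant.

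The sequences of the regions with the highest scores are shown first, because their scores stood apart from the rest at these genes. All are from mm9, 5′ to 3′ on the plus strand, with capitals for C/EBP words (TTGCNNAA or TTACNNAA) and ETS words (NGGAAGN with A or C at the first N and C or T at the last) read on either strand. The Sfpi1 intron stretch is chr2:90938372-90938671, the Sfpi1 upstream stretch is chr2:90923076-90923375 and the Fli1 intron stretch is chr9:32346950-32347249. Sfpi1 is read from the plus strand and Fli1 from the minus strand. None of these stretches overlapped an annotated exon of a protein-coding gene.
Sfpi1 intron region: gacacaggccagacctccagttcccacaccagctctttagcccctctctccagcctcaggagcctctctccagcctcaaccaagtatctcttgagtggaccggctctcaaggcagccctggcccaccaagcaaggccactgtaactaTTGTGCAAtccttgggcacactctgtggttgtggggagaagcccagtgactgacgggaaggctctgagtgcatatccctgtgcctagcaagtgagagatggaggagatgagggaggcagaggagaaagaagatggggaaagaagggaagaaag
Sfpi1 upstream region: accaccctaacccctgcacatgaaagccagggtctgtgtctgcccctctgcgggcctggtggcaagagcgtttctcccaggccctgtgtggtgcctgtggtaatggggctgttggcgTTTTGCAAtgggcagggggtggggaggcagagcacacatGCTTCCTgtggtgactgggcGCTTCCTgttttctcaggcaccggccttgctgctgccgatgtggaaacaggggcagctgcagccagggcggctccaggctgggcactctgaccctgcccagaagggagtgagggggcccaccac
Fli1 intron region: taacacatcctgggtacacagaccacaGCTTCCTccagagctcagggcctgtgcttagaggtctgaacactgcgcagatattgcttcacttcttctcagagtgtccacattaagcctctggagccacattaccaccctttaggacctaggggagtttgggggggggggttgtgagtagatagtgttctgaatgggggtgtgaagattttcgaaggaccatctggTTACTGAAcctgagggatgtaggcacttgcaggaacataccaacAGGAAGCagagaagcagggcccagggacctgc

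The Sfpi1 intron region held the C/EBP word TTGCACAA on the minus strand, with its middle 1 bp from the region's centre, and no ETS word. A RUNX word, TGTGGTT, followed on the plus strand 23 bp from the centre. The Sfpi1 upstream region held the C/EBP word TTGCAAAA 77 bp from the centre and the ETS word AGGAAGC at 2 places, 39 and 19 bp from the centre, all on the minus strand. In the Fli1 region the C/EBP word TTACTGAA lay 108 bp from the centre, between 2 copies of AGGAAGC at 90 bp on one side and 151 bp on the other.

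Both Sfpi1 regions were also covered by qPCR pairs that the study designed for C/EBPα ChIP, and these show where binding at the gene was assayed. The pair named for the intron amplifies chr2:90938462-90938560 (99 bp), which includes the C/EBP word of the Sfpi1 intron region, and its midpoint is 11 bp from the region's centre. The pair named for the enhancer amplifies chr2:90923131-90923244 (114 bp), which includes the C/EBP word of the upstream region and 1 of its 2 ETS words, and its midpoint is 87 bp from the centre. Each is given as designed, 5′ to 3′, with the second member of a pair on the minus strand.
Intron pair, first: ttgagtggaccggctctcaag
Intron pair, second: gcttctccccacaaccacaga
Enhancer pair, first: ctggtggcaagagcgtttctc
Enhancer pair, second: caccacaggaagcatgtgtgc

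Sfpi1 had 3 regions, and 2 of them were among the 3 with the highest scores at the ETS genes. The deposited score is the p-value of the peak caller MACS for the region against the IgG mock, written as -10 times its log10. It is 50 at the lowest in this list, which is a p-value of 1e-05, and a higher score means a smaller p-value. The intron region, chr2:90937954-90939090 of mm9, the build of all coordinates here (1137 bp), had a score of 637.44 and ranked 68 among the 17899. The upstream region, chr2:90922888-90923659 (772 bp), had a score of 187.88 and ranked 418. Both lay in intron 1 of the longest Sfpi1 transcript, which starts at position 90922547, and were 15975 and 727 bp downstream of that start. The upstream region is so called here because it lies upstream of the other annotated starts. From the start at 90936253 the upstream region was 12979 bp upstream and the intron region 2269 bp downstream, and from the start at 90936937 the distances were 13663 and 1585 bp. The third region, chr2:90963548-90964104 (557 bp), had a score of 67.71, lay 41.3 kb downstream in an intron of the cardiac gene Mybpc3 and overlapped an exon of that gene by 62 bp. It held neither a C/EBP nor an ETS word.

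Spib, the closest relative of PU.1 and a factor of B cells and plasmacytoid dendritic cells, had 4 regions, none with a score of 100 or more. Its highest, chr7:51865378-51866013 (636 bp), had a score of 71.71 and lay 78.3 kb upstream in the body of Myh14, a myosin heavy chain gene. The nearest to Spib, chr7:51802095-51802787 (693 bp), had a score of 69.42 and lay 15000 bp upstream, in an intron of Pold1, which encodes the catalytic subunit of a replicative DNA polymerase. The other 2 were 515 and 568 bp wide, with scores of 67.31 and 57.99. The Spib gene body held no region, and none of the 4 had its nearest TSS at Spib.

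Fli1, a regulator of megakaryocytes and of blood stem cells, had 3 regions, and its highest was the second highest at the ETS genes. This region, chr9:32346748-32347392 (645 bp), had a score of 393.95, ranked 144 in the list and lay 1904 bp downstream of the Fli1 TSS in intron 1. Ets1, best known from T and natural killer cells, is the neighbouring gene, and its TSS is so close that the same region fell into the Ets1 window, 96.7 kb upstream of Ets1 and 3.26 kb inside the window's edge. The region between the genes, chr9:32418729-32419310 (582 bp), had a score of 83.43, lay 24.8 kb upstream of Ets1 and was also in the windows of both. The third Fli1 region, chr9:32237856-32238454 (599 bp), had a score of 58.04 and lay in intron 5, 111 kb downstream of the TSS. The 122 kb body of Ets1 held no region.

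Erg, a factor required to keep blood stem cells, and Ets2, a widely expressed target of RAS signalling, are neighbours as well and shared 2 of their 4 regions each. The highest Erg region, chr16:95686174-95686616 (443 bp), had a score of 93.60 and lay in intron 3, 122 kb downstream of the start of the longest transcript and 5.44 kb upstream of another annotated start. The nearest to that first start, chr16:95842675-95843379 (705 bp), was 34.8 kb upstream with a score of 74.65. Another Erg region, chr16:95606614-95607312 (699 bp), lay in intron 5 with a score of 59.43. For Ets2 the highest was chr16:95992316-95992791 (476 bp), 68.9 kb downstream with a score of 97.02, and the nearest was chr16:95875067-95875612 (546 bp), 48.3 kb upstream with a score of 63.16. A further Ets2 region, chr16:96004001-96004872 (872 bp), had a score of 83.72, 80.8 kb downstream. The Ets2 gene body held no region.

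Etv6, a repressor needed by adult bone marrow stem cells, and Elf1, an activator of lymphoid and endothelial genes, had 1 region each, both outside the gene. The Etv6 region, chr6:133906855-133907618 (764 bp), was 78.5 kb upstream with a score of 52.77, the lowest of the 18. The Elf1 region, chr14:79812796-79813333 (538 bp), was 67.9 kb upstream with a score of 75.34. It lay in the body of Mtrf1, a mitochondrial translation release factor gene, and overlapped exon sequence of protein-coding genes by 116 bp.

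**Figure D1:**
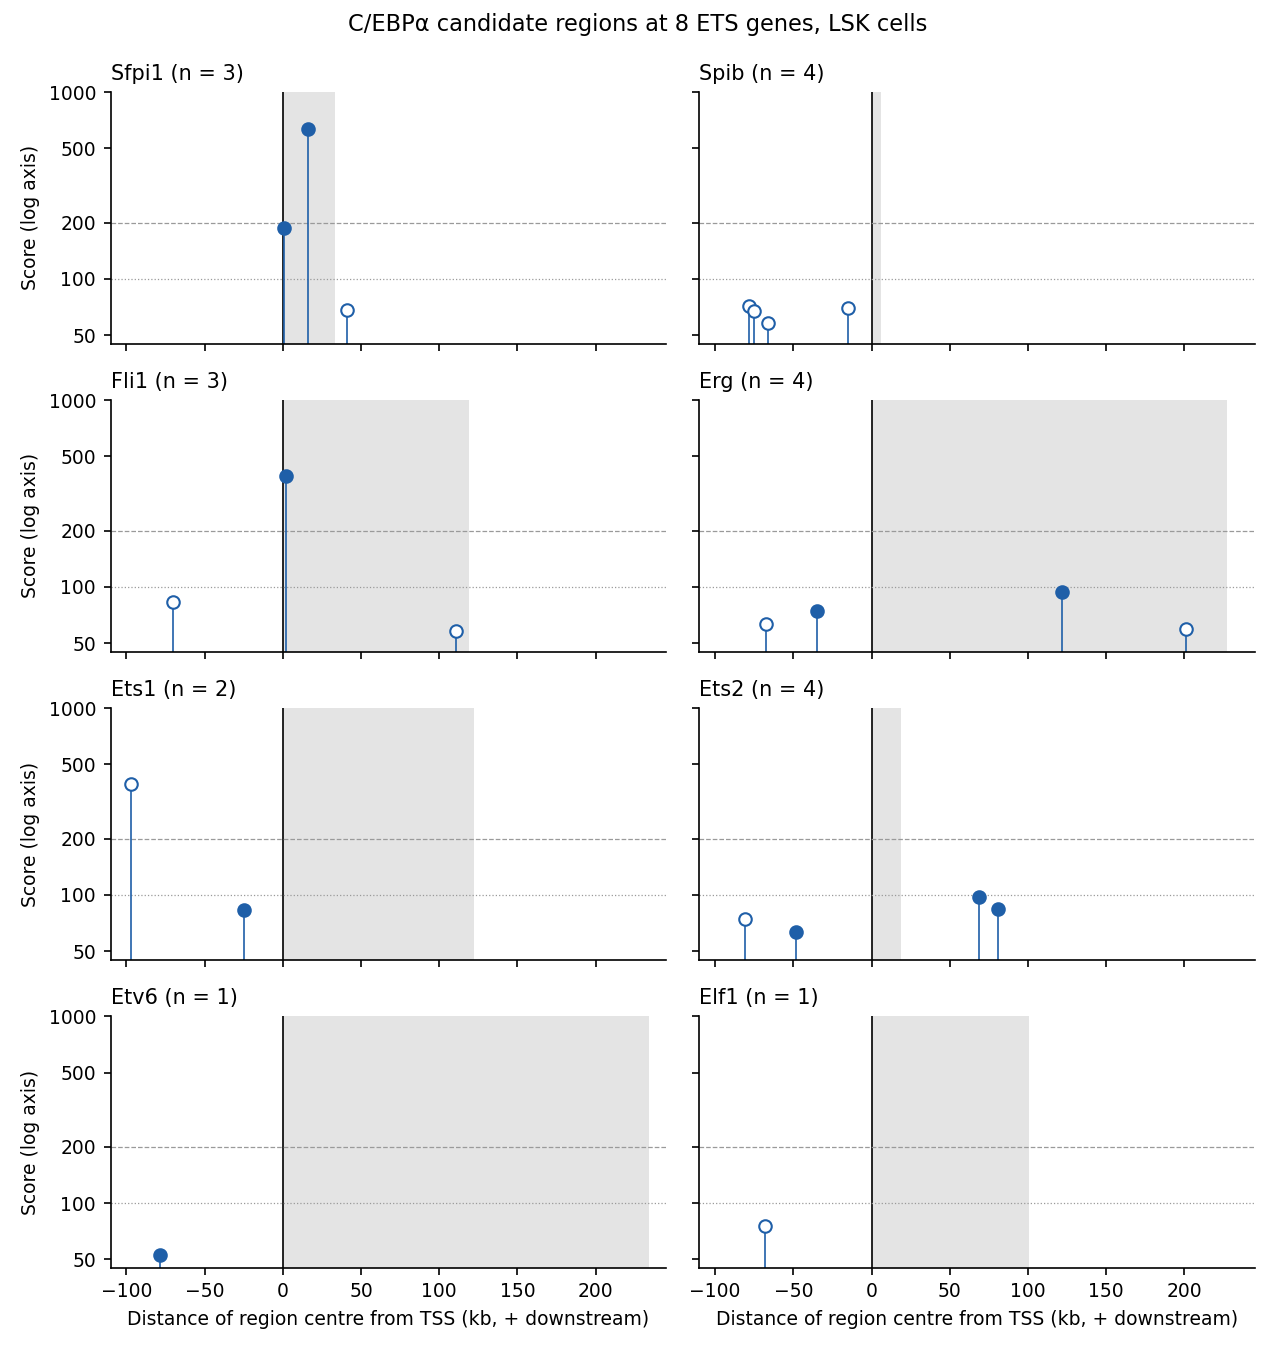
Score (log axis) of each region against the distance of its centre from the TSS of the longest transcript in kb, positive in the direction of transcription, for the 8 genes. Grey is the gene body, lines mark scores of 100 and 200, and a filled point is a region whose nearest TSS is that of the gene. Scores over 100 appear at Sfpi1 (637.44 and 187.88) and at Fli1 (393.95), and the Fli1 region appears again in the Ets1 panel.

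Scores of at least 100 were found for 3 of the 18 regions (16.7%, exact binomial 95% interval 3.58 to 41.4%), and 20.3% of all deposited regions reached that score. At least 200 was reached by 2 of the 18 (11.1%, interval 1.38 to 34.7%) against 2.06% of all. These intervals cover counting error only. The median score of the 18 was 73.2, with a range from 52.77 to 637.44, and that of all deposited regions was 73.8. The medians were close, and 9 of the 18 were below the list's median. The other 15 regions all had scores under 100, with Ets2 at 97.02 as the highest, and the next score above was 187.88. Widths ranged from 443 to 1137 bp with a median of 618 bp, against 587 bp for all regions, and the widest was the Sfpi1 intron region. The median share of G and C was 52.2% at the ETS genes and 48.7% over all regions.

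**Figure D2:**
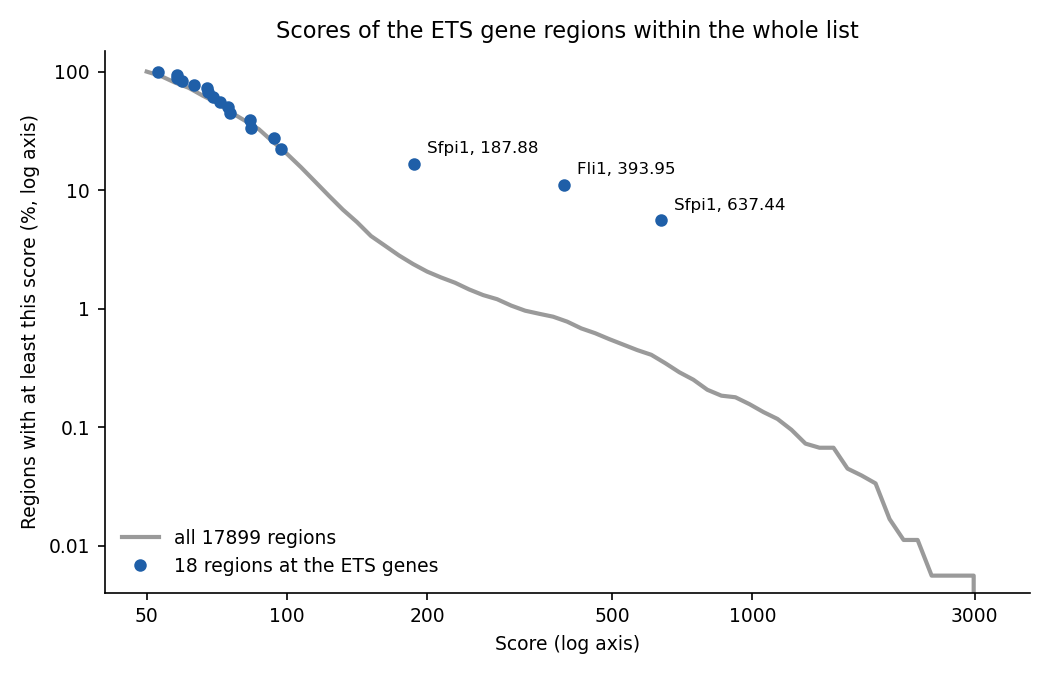
Share of regions with at least a given score (both axes logarithmic), for all deposited regions (line) and for the 18 at the ETS genes (points). The points follow the line up to 97.02, and 3 lie apart from it, Sfpi1 at 187.88, Fli1 at 393.95 and Sfpi1 at 637.44.

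Each of the 8 genes had a region in its window, as did 80.3% of all 22380 protein-coding gene records of the annotation. The number per gene was 1 to 4, and over all gene records the median was 2, with quartiles of 1 and 3. Together the windows of the 8 genes covered 1.71 Mb with 1.05 regions per 100 kb, against 0.818 in the windows of all protein-coding genes. A region with a score of at least 200 was in the window of 3 of the 8 genes (37.5%, interval 8.52 to 75.5%), Sfpi1, Fli1 and Ets1, against 5.5% of all gene records. The Ets1 count rests on the region in Fli1, so these genes are not independent, and the interval does not allow for this. Counting a region only for the gene with the nearest TSS left 2 of the 8 (25%, interval 3.19 to 65.1%), Sfpi1 and Fli1, against 1.43% of all. The 8 genes were chosen with earlier results of these data known, so no enrichment is read from these shares or their intervals. By highest score in the window, Sfpi1 was above 98.6% of all gene records and Fli1 above 97.4%, and the genes other than these and Ets1 were above 21.6% (Etv6) to 68.7% (Ets2).

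Of the 18 regions, 10 had their nearest TSS at 1 of the 8 genes (55.6%, interval 30.8 to 78.5%), 3 at Ets2, 2 each at Sfpi1 and Erg, and 1 each at Fli1, Ets1 and Etv6. Counted as pairs of a gene and a region in its window, this was 10 of 22 pairs (45.5%), against 31.9% of the pairs over all gene records. The remaining 8 regions were nearest to genes outside the ETS family, such as Kcnj1, Kcnj15, Mybpc3 and Kbtbd7. A gene body of the 8 held 6 of the regions, 2 each in Sfpi1, Fli1 and Erg, all in introns. In all, 12 of the 18 centres lay in introns of protein-coding genes (66.7%, interval 41 to 86.7%), and the other 6 were outside any such gene. The rule that picks regions by gene windows favours gene bodies, so these shares are set against the 14497 deposited regions that fall in the same kind of window around any protein-coding gene. Of those, 51.1% had their centre in an intron and 40.8% outside any gene. Exon sequence was overlapped by 3 of the 18 (16.7%), against 17.7% of the 14497. The 3 regions with the highest scores had their centre within 5 kb of an annotated start of their ETS gene, and the Spib region in Pold1 lay 1662 bp from a start of Pold1. Within 5 kb of an annotated start of any protein-coding gene were 4 of the 18 centres (22.2%), 16.7% of the 14497 and 47.4% of the 327 among these with a score of at least 200.

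A C/EBP word within 70 bp of the centre was found in 2 of the 18 regions (11.1%, interval 1.38 to 34.7%), and 10.6% of all deposited regions held one in a window of that length. The 2 were the Sfpi1 intron region and the highest Spib region. An ETS word in that window was found in 1 of the 18 (5.56%, interval 0.141 to 27.3%), the Sfpi1 upstream region, against 10.1% of all. No region of the 18 held both within 70 bp, and 1.5% of all regions did. Both counts depend on the length of the window. Within 150 bp of the centre, a C/EBP word was found in 6 of the 18 (33.3%, interval 13.3 to 59%), against 20.3% of all, and an ETS word in 5 (27.8%, interval 9.69 to 53.5%), against 20.2%. The intervals of both words cover the share of the whole list at either length, so no difference from the list is read from them. In windows of the shorter length placed 1000 bp to either side, the C/EBP word was found in 2 of 36 windows at the ETS genes and in 12% of all such windows. The ETS word was found in 4 of 36 and in 7.34% of all. Over the whole list, the share within 70 bp of the centre was thus lower than in these windows for the C/EBP word (10.6%) and higher for the ETS word (10.1%).

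Among all deposited regions the C/EBP word near the centre was more frequent at higher scores. It was found in 9.22% of those with scores under 100, in 12.4% from 100 to 200 and in 46.5% of the 368 with at least 200 (interval 41.3 to 51.7%). The ETS word was found in 9.73%, 10.6% and 21.5% of the same classes. At the ETS genes the members of the highest class were the Sfpi1 intron region, with the C/EBP word, and the Fli1 region, with neither word in that window. The exact word TTGCACAA of the Sfpi1 intron region was found somewhere in 3.61% of all regions and in 26.4% of those with a score of at least 200. For the words of the other regions with the highest scores the rise was smaller. TTGCAAAA of the Sfpi1 upstream region was found in 2.01% and 4.08%, and TTACTGAA of the Fli1 region in 1.91% and 2.99%. A C/EBP word with its middle within 10 bp of the centre, as in the Sfpi1 intron region, was found in 1.87% of all and in 9.51% of the highest class.

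**Figure D3:**
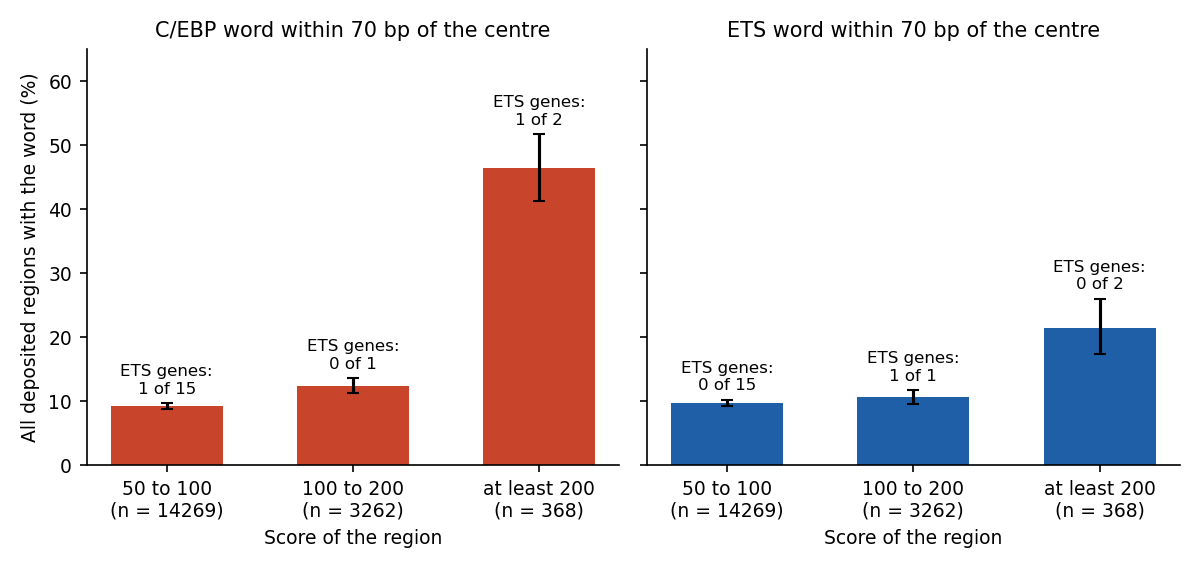
Share of all deposited regions with a C/EBP word (left) or an ETS word (right) within 70 bp of the centre, by class of score, with exact binomial 95% intervals. The text over each bar gives the count among the 18 regions at the ETS genes. The C/EBP share is 9.22% in the lowest class and 46.5% in the highest.

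Over the whole width of the regions, 9 of the 18 held a C/EBP word (50%, interval 26 to 74%) and 36.3% of all did, while 8 held an ETS word (44.4%, interval 21.5 to 69.2%) and 33.9% of all did. Regions differ in width, so these shares are not for windows of 1 length. Each of the 3 regions with the highest scores held a C/EBP word, and 6 of the other 15 did. Over the whole list the share with a C/EBP word was also higher at higher scores, 34.2% under 100, 40.5% from 100 to 200 and 81.2% at 200 or more. Both kinds of word were found in 4 of the 18 regions (22.2%, interval 6.41 to 47.6%), and 13.2% of all deposited regions held both. There were 31 bases between the nearest pair in the Sfpi1 upstream region, 36 in the Fli1 region, 51 in the highest Spib region and 187 in the highest Erg region. A pair with at most 50 bases between was thus present in 2 of the 18, and in 3.62% of all regions and 19.3% of those with a score of at least 200. Some of the words of the regions with lower scores are shown in stretches of 100 bases, capitals as above, for a comparison with Sfpi1 and Fli1. The ETS word of the highest Erg region lies outside its stretch, and the words of the regions not named next are not shown. They are from the highest Erg region (chr16:95686229-95686328), the region between Fli1 and Ets1 (chr9:32419211-32419310), the Elf1 region (chr14:79813233-79813332) and the highest Spib region (chr7:51865722-51865821), all mm9 and plus strand.
Erg intron region: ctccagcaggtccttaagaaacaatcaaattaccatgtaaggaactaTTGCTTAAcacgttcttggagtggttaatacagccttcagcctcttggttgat
Fli1 to Ets1 region: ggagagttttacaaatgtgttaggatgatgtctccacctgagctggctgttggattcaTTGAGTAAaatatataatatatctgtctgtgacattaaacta
Elf1 region: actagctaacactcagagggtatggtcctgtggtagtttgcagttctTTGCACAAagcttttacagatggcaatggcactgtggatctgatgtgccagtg
Spib region: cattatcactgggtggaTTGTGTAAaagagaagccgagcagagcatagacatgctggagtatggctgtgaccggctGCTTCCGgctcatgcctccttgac

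The Elf1 region held the same C/EBP word as the Sfpi1 intron region, TTGCACAA, but 219 bp from its centre and with a score of 75.34. In the Spib region the word was TTACACAA, 47 bp from the centre, and the ETS word CGGAAGC lay 105 bp from the centre. The Erg region held TTGCTTAA at 115 bp and the ETS word AGGAAGT at 79 bp on the other side of the centre, and the region between Fli1 and Ets1 held TTACTCAA at 253 bp. The longer word GAGGAAGT, which PU.1 binds, was found in none of the 18 within 70 bp of the centre, and in 1.34% of all regions. Over the whole width it was found in 1 of the 18, the highest Erg region, where the ETS word at 79 bp is part of it, and in 4.7% of all. A RUNX word (TGNGGTN with T or C at each N) was near the centre in 1 of the 18, the Sfpi1 intron region, against 6.77% of all, and over the whole width in 3 (16.7%) against 24.6%. A GATA word (AGATAA or TGATAA) was near the centre in 3 (16.7%), the highest Spib region and both Erg intron regions, against 8.65%, but over the whole width in 5 (27.8%) against 37.5%. The SP1 word CCCGCCC was near the centre in 1 (5.56%), the Ets2 region 80.8 kb downstream, against 1.58%, and over the whole width in 3 (16.7%) against 5.94%. The exact intervals of all 6 counts cover the shares of the whole list.

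**Figure D4:**
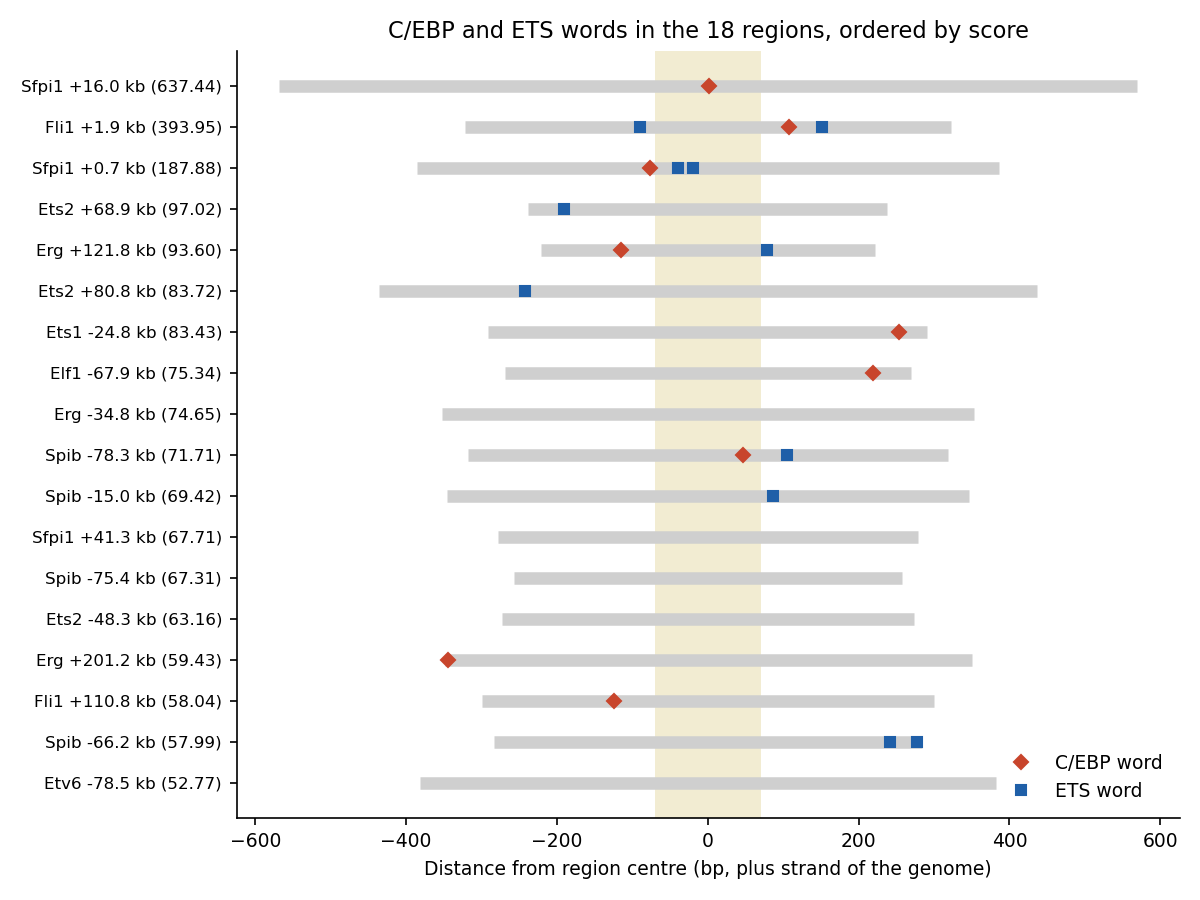
The 18 regions in order of score, labelled with the gene, the distance from its TSS and the score, each drawn as a bar to scale around its centre in bp. Diamonds are C/EBP words, squares are ETS words and the shaded band is the window of 70 bp to either side of the centre. A C/EBP word is in the band for Sfpi1 (637.44) and Spib (71.71) and ETS words are in it for Sfpi1 (187.88).

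The other ETS genes were counted in the same way. Of 18 further family members, 16 had a region (88.9%, against 80.3% of all gene records), 30 regions in all with a median score of 75.3. The repressor Erf alone among the 18 (5.56%, against 5.5% of all) had a region with a score of at least 200 (366.18), and the nearest TSS of that region was that of Dedd2. The next was Elf5, an epithelial factor, with a score of 131.04 at 1519 bp downstream of its TSS. Elf3 and Elk1 had none. Of 14 blood factors listed here as partners of PU.1, 13 were found in the annotation by symbol (Gfi1 was not). A region was present for 11 (84.6%, against 80.3% of all gene records). One with a score of at least 200 was present for 5 (38.5%, against 5.5% of all). These were Cebpb (577.42), Egr1 (528.97), Runx1 (449.97), Irf8 (290.94) and Gata2 (240.02), and for Runx1, Irf8 and Gata2 the nearest TSS was their own. For Cebpb and Egr1 it was that of another gene. The partner list, too, was chosen with earlier results of these data known. The Runx1 region lay 110 kb downstream of the start of the longest transcript. Sfpi1 thus had the highest value among these named genes, and no test of that order was possible.

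**Figure D5:**
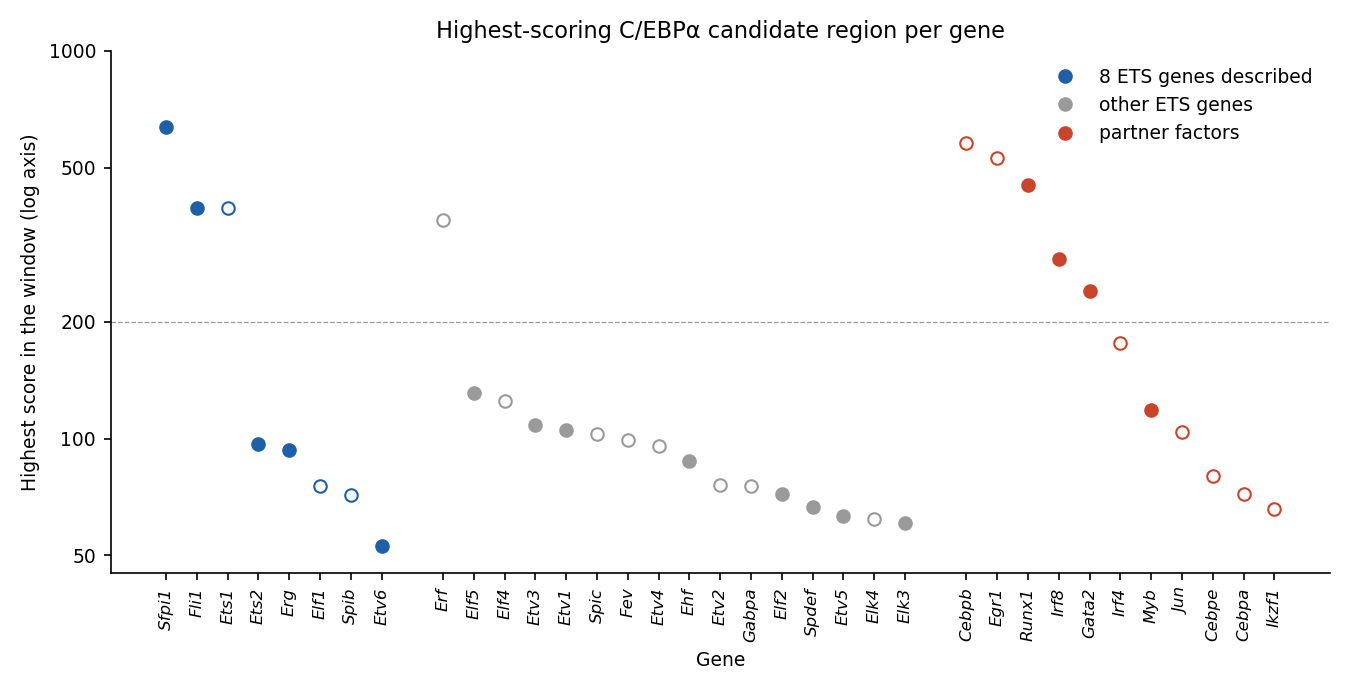
Highest score (log axis) of a region in the window of each gene, for the 8 ETS genes, the other ETS genes and the partner factors. Filled points are regions whose nearest TSS is that of the gene, the dashed line is a score of 200, and genes without a region are left out. Sfpi1 is at 637.44, Erf at 366.18 and Cebpb at 577.42.

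The window decides which regions are counted, and regions with scores over 100 lay on either side of an edge, the Fli1 region inside the Ets1 window and a region with a score of 109.10 at 14.4 kb outside the Spib window. Others inside, up to 19.3 kb from an edge, were the region in Fli1 intron 5, at 8.36 kb with a score of 58.04, and 2 for Ets2. The Ets2 regions were at 19.2 kb with a score of 83.72 and at 19.3 kb with 74.65. Others outside, up to the same distance, were regions at 1.6 kb from the Elf1 window with a score of 56.47, at 1.9 kb from the Sfpi1 window with 63.34 and at 3.09 kb from the Etv6 window with 55.31. The Spib window had regions at 4.45 kb with 59.24 and at 12.1 kb with 53.39, and the Erg window had one at 9.81 kb with 64.27. Farther out, at 96.7 kb from the Etv6 window, lay a region with a score of 149.03.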

How the data were processed

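Reads had been aligned to mm9 with Bowtie (0.12.8 in the submitters' processing notes), and MACS (1.4.2) called candidate regions against an IgG mock. The deposited score is -10 times the log10 of the p-value from MACS, and the list precedes the authors' later filters. Here, region centres were assigned to genes of the GENCODE annotation of NCBIM37 (mm9), and words were counted on both strands in that assembly. Assignment and word counting were tested on simulated data. The members and gene lists were chosen with earlier results of these data known. Named by rule were, per gene, the region with the highest score and the one nearest the TSS, all with a score of at least 200, and any with both words near the centre, and the remaining members are given as well. Of the genes next to the regions, 1 is not reported here. The alternatives were other windows, starts, overlaps, scores and words. Analyses used Python 3.11.15, scipy 1.17.1, numpy 2.4.6, pysam 0.24.0, matplotlib 3.10.9 and samtools 1.23.1.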

Additional observations from a re-analysis of the deposited data

How the results depend on the processing

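The 3 regions with the highest scores, the 2 with at least 200 and the 3 with at least 100 were found under every window tried on them, where a window of 200 kb, chosen after the data were seen, gave 4 of at least 100. Of 48 alternative values, 34 stayed within 1.5 times the main count or within the interval of the median. The number of regions was 11 within 50 kb and 30 within 200 kb. With scores of at least 100 alone it was 3, with a median of 393.95, 3 nearest to 1 of the 8 genes and 1 with a C/EBP word within 70 bp of the centre. A C/EBP word near the centre was found in 1 region within 50 kb of the TSS, in 6 regions within 150 bp of the centre, in 9 anywhere in the region and in 1 with TTGCNNAA alone. An ETS word was found in 2 with any annotated TSS, in 5 within 150 bp, in 8 anywhere and in 0 with GAGGAAGT alone. Over all regions, the shares within 150 bp were 20.3% for the C/EBP and 20.2% for the ETS word. The number of genes with a score of at least 200 was 2 within 50 kb, without Ets1. No paired analysis was possible because the results come from 1 library and no test. Read numbers were not used here, so the effect of depth on regions with low scores was not tested.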

Other observations

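Beyond the windows, 12 more regions lay within 200 kb of the TSS of the 8 genes, a distance chosen after the data were seen. The highest of these had a score of 109.10 and lay 114 kb downstream of Spib, with Lrrc4b as the nearest gene. The next, chr9:32621379-32621914 of mm9, had a score of 88.72 and lay 178 kb downstream of the Ets1 TSS, which was its nearest, and it held a C/EBP word within 70 bp of its centre. Around the 13 partner factors, 10 of 44 regions held a C/EBP word near the centre (22.7%, exact binomial 95% interval 11.5 to 37.8%), and around the other ETS genes 4 of 30 did (13.3%, interval 3.76 to 30.7%), against 10.6% of all deposited regions. No test was made of these shares.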
